A study of Mus musculus with 4 samples.

Results

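The genes described are 10 members of the Wnt pathway and its targets that mark liver zonation: Ctnnb1, Apc, Axin2, Lgr5, Rnf43, Znrf3, Tbx3, Glul, Oat and Lect2. They were chosen by name out of 21938 protein-coding genes of the GENCODE vM21 annotation (GRCm38), and every chromatin peak in each gene or within 10 kb of its transcription start site (TSS) was taken. Open chromatin was profiled by ATACseq, in which a transposase cuts accessible DNA. The histone variant H2A.Z was profiled by ChIPseq on chromatin digested with micrococcal nuclease. Both assays were run on a single WT liver (Uhrf1-fl/fl, without Cre) and a single Uhrf1hepKO liver (Uhrf1-fl/fl;Alb:Cre), from male C57Bl/6 mice aged 8 to 12 weeks on normal diet, which gives 4 libraries. Alb:Cre deletes in cells that use the albumin promoter, so the other cells of the liver keep Uhrf1, a factor that maintains DNA methylation. With 1 library per condition no test between genotypes was possible, and each genotype difference below compares 2 libraries.

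In the liver lobule, endothelial cells around the central vein release Wnt ligands and the R-spondin RSPO3. Without them a destruction complex built on APC and AXIN proteins removes β-catenin, the product of Ctnnb1. With them β-catenin enters the nucleus, binds TCF factors and switches on pericentral genes such as glutamine synthetase (Glul), as well as feedback genes of the pathway itself. R-spondins bind LGR receptors and thereby remove the ubiquitin ligases RNF43 and ZNRF3, which otherwise clear Wnt receptors from the cell surface. H2A.Z commonly sits in the nucleosomes that flank an open TSS.

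The lists used held 10582 WT and 10764 Uhrf1hepKO ATACseq peaks, and 51450 WT and 47135 Uhrf1hepKO H2A.Z peaks. The fold of a peak is its read pileup plus 1 over the local background plus 1, taken as a mean over the peak for ATACseq and at the summit for H2A.Z, and its median was 4.31, 4.05, 5.12 and 5.35 in that order. Folds were not scaled between libraries. For H2A.Z the number of reads over each summit was recovered from the fold and the p-value, and is given below with an exact Poisson 95% interval. These intervals cover counting error only. The peak lists did not tell the tissue apart. Of 7 hepatocyte markers, 2, 3, 3 and 1 had a peak in the WT ATACseq, Uhrf1hepKO ATACseq, WT H2A.Z and Uhrf1hepKO H2A.Z lists, and of 5 neuronal markers 2, 1, 2 and 2 did. Alb itself had a peak in the Uhrf1hepKO ATACseq list alone, and Apoa1 and Serpina1a had none in any list. In the same order, peaks were found at 2, 1, 4 and 4 of 6 endothelial, at 1, 1, 2 and 2 of 5 Kupffer cell, at 1, 0, 2 and 2 of 5 cholangiocyte and at 0, 0, 1 and 1 of 5 stellate cell markers. Within 1 kb of the TSS, 1, 1, 0 and 0 hepatocyte and 1, 0, 2 and 2 cholangiocyte markers had a peak. No neuronal, endothelial, Kupffer cell or stellate cell marker had a peak there in any list. Uhrf1 had 1 peak in every list, so its deletion was not visible in the peaks.

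Every one of the 10 genes had a peak in at least 1 list, 36 peaks in all. ATACseq peaks were found at 4 genes in the WT liver (40%, Wilson 95% interval 16.8 to 68.7%) and at 5 in the Uhrf1hepKO liver (50%, 23.7 to 76.3%). The same count over all protein-coding genes gave 39.2% in WT and 37.7% in Uhrf1hepKO. H2A.Z peaks were found at 9 genes in WT (90%, 59.6 to 98.2%) and 7 in Uhrf1hepKO (70%, 39.7 to 89.2%), beside 64.3% and 62.4% of all genes. Within 1 kb of the TSS, 4 genes had an ATACseq peak in WT and 4 in Uhrf1hepKO, beside 26.4% of all genes in WT and 24.1% in Uhrf1hepKO. Within the same distance 7 genes had H2A.Z in WT and 5 in Uhrf1hepKO, beside 46.0% and 44.5%. The median length of the 10 genes was 30863.5 bp beside 17425 bp for all genes, which gives the gene window more room for a peak, although Lect2, Glul and Tbx3 were shorter than the latter. In all 16 counts of members or of their peaks, the interval of the count held the value of all genes or all peaks.

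**Figure D1:**
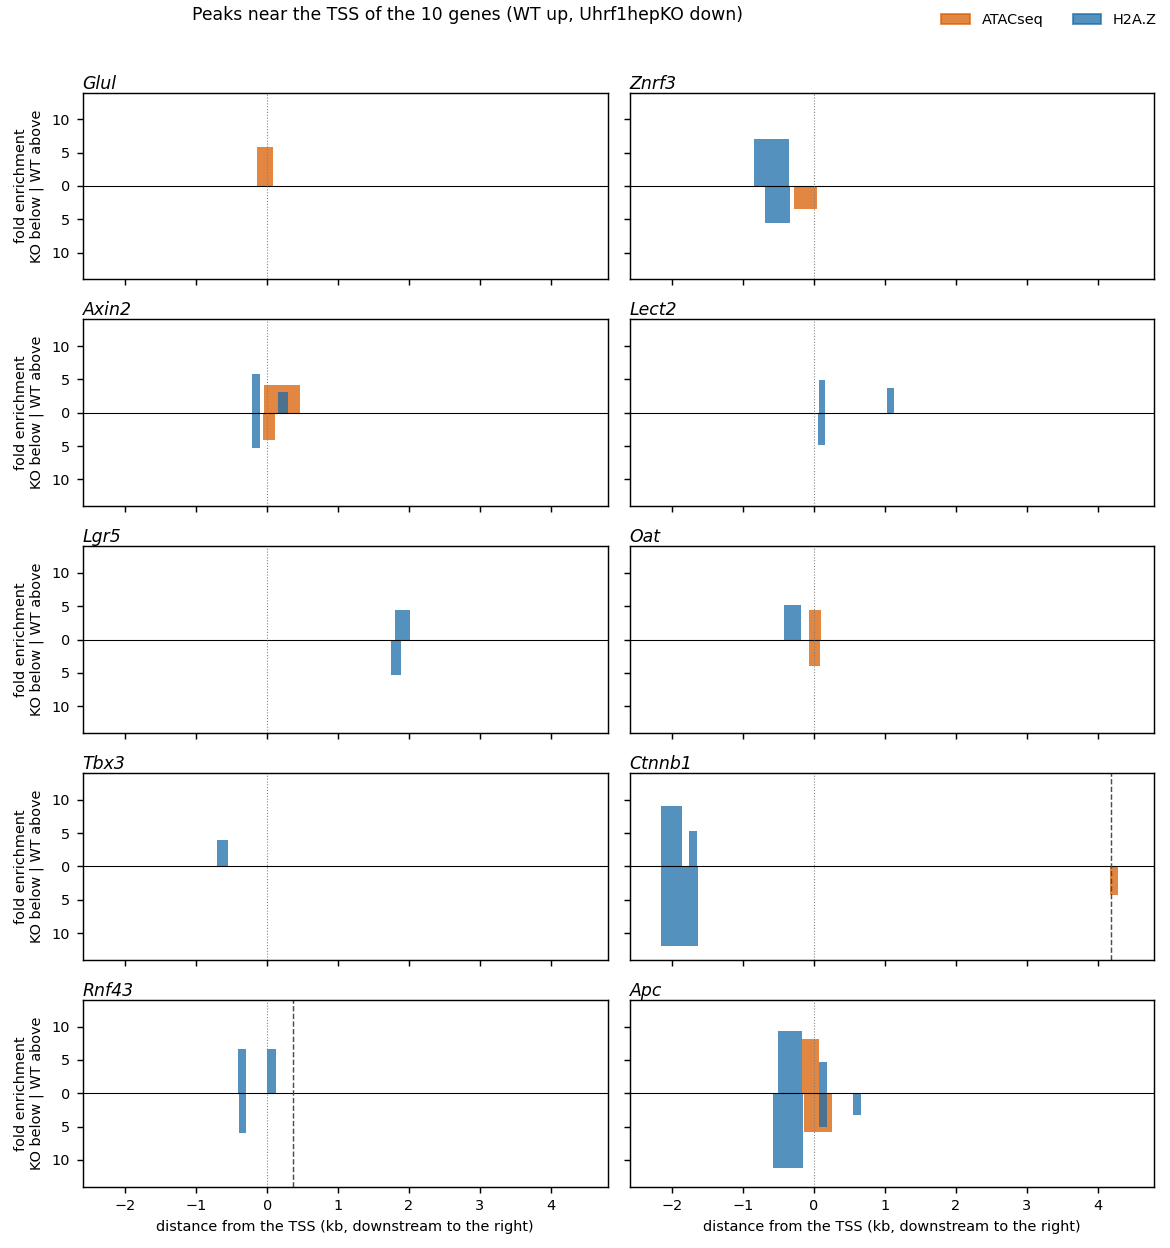
Peaks at the 10 genes, plotted by distance from the TSS in kb (horizontal, downstream to the right) and by fold enrichment (vertical), with WT above and Uhrf1hepKO below the line, ATACseq in orange and H2A.Z in blue. Dotted lines mark the TSS and dashed lines the first start of the principal transcripts of Rnf43 and Ctnnb1. Peaks farther than the plotted range, in Axin2 and Lgr5, are not drawn. ATACseq peaks sit on the TSS or, at Ctnnb1, on the principal start, and H2A.Z peaks lie mostly beside the TSS.

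Positions below are in bp from the TSS along the direction of transcription, negative upstream. Of the 9 ATACseq peaks, 8 covered the TSS, and the other lay on the start of the principal Ctnnb1 transcripts. Of the 27 H2A.Z peaks, 1 covered the TSS.

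Ctnnb1, at chr9:120929216-120960507 on the plus strand, encodes β-catenin, the transducer of the pathway. It had the strongest H2A.Z peak of the 10 genes in the Uhrf1hepKO list, and the next strongest after Apc in the WT list. In WT, H2A.Z formed 2 peaks upstream, with summits at -1951 (36 reads, 25.2 to 49.8, fold 9.02) and -1689 (21 reads, 13 to 32.1, fold 5.36). In Uhrf1hepKO a single peak from -2157 to -1633 overlapped both, with its summit at -1917 (50 reads, 37.1 to 65.9, fold 11.9). That summit stood in the top 1.65% of its list by fold, and the stronger WT summit in the top 8.04%. The intervals of 36 and 50 reads overlap. These peaks also lie on the antisense gene 4930593C16Rik, and neither assay separates the strands. The annotated 5′ end of Ctnnb1 holds 17 CpGs within 500 bp and no peak within 1 kb. The principal transcripts start downstream, from +4184, and there the Uhrf1hepKO liver had an ATACseq peak from +4172 to +4282 (fold 4.23, q = 0.00132). The WT list had no ATACseq peak there, and its nearest one was 65129 bp from the TSS. The 250 bases before that start, chr9:120933150-120933399 (plus strand), are shown because the CpG-rich promoter is not the one the gene's outer end marks. Capitals mark the 35 CpGs.
Ctnnb1 principal promoter: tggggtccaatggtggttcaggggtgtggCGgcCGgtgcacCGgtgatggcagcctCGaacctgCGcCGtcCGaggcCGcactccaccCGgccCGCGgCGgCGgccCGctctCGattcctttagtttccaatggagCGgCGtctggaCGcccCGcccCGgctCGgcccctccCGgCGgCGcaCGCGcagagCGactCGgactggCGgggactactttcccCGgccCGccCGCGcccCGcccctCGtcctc

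Apc, at chr18:34220924-34322552 on the plus strand, encodes the scaffold of the destruction complex. Both assays gave peaks at its TSS in both livers, and its WT ATACseq peak had the highest ATACseq fold of the 10 genes. Its ATACseq peak ran from -170 to +68 in WT (fold 8.09, q = 9.69e-14) and from -146 to +250 in Uhrf1hepKO (fold 5.78, q = 7.91e-08). The WT peak was in the top 1.98% of its list and the Uhrf1hepKO peak in the top 10.7%. On the upstream side the H2A.Z summit was at -411 in WT (37 reads, 26.1 to 51.0, fold 9.26) and at -405 in Uhrf1hepKO (47 reads, 34.5 to 62.5, fold 11.2). On the downstream side it was at +95 in WT (18 reads, 10.7 to 28.4, fold 4.63) and at +137 in Uhrf1hepKO (21 reads, 13 to 32.1, fold 5.11). The flanking summits were thus 506 bp apart in WT and 542 bp apart in Uhrf1hepKO, with the ATACseq peak between or over them. A further Uhrf1hepKO summit at +605 (13 reads, 6.92 to 22.2, fold 3.25) had no WT counterpart. The pseudogene Gm10548 lies under all of these peaks.

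Axin2, at chr11:108920349-108950783 on the plus strand, encodes a scaffold of the destruction complex that is itself a Wnt target. Its ATACseq peak ran from -38 to +463 in WT (fold 4.20, q = 0.00387) and from -58 to +103 in Uhrf1hepKO (fold 4.02, q = 0.00354). Both folds lie near the median of their list. H2A.Z lay upstream at -166 in WT (23 reads, 14.6 to 34.5, fold 5.85) and at -182 in Uhrf1hepKO (22 reads, 13.8 to 33.3, fold 5.35). The summits are 16 bp apart. A downstream WT summit at +169 (12 reads, 6.20 to 21.0, fold 3.17) lies 335 bp from the upstream one and within the WT ATACseq peak. It had no Uhrf1hepKO counterpart, and it was weak, since 98.5% of the WT peaks had at least its fold. An intronic H2A.Z peak stood at +16017 in WT (20 reads, fold 5.12) and at +15960 in Uhrf1hepKO (23 reads, fold 5.58).

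The WT upstream H2A.Z peak of Axin2, chr11:108920132-108920242 (plus strand), is shown as a peak beside the TSS that both livers had, with its 7 CpGs in capitals.
Axin2 H2A.Z peak: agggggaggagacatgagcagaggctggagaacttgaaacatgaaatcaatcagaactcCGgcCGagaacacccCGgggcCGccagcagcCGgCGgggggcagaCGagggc

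Lgr5, at chr10:115450311-115587780 on the minus strand, encodes an R-spondin receptor that marks stem cells and pericentral hepatocytes. No ATACseq peak was near it: the nearest was 202720 bp from the TSS in WT and 202842 bp in Uhrf1hepKO. Its H2A.Z lay inside the gene. In the first part of the gene the summit was at +1876 in WT (17 reads, 9.90 to 27.2, fold 4.39) and at +1801 in Uhrf1hepKO (22 reads, 13.8 to 33.3, fold 5.35). Far downstream, intronic summits stood at +108757 in WT (19 reads, fold 4.87) and +108505 in Uhrf1hepKO (22 reads, fold 5.35), in peaks that miss each other by 107 bp.

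Rnf43, at chr11:87662722-87735539 on the plus strand, encodes a membrane ubiquitin ligase that removes Wnt receptors. Its principal transcripts start downstream of the TSS used here, from +365 to +1552. No ATACseq peak was near the gene in either list, the nearest being 23368 bp from the TSS in WT and 70515 bp in Uhrf1hepKO. H2A.Z had its summit at -350 in both livers, with 26 reads in WT (17.0 to 38.1, fold 6.58) and 25 in Uhrf1hepKO (16.2 to 36.9, fold 6.04). WT had another summit of 26 reads at +58, 408 bp downstream, whose peak covered the TSS and was the only H2A.Z peak at the 10 genes to do so. In Uhrf1hepKO no peak was called there. The nearest Uhrf1hepKO peak edge was 287 bp away. This was the H2A.Z peak with the most reads among those found in 1 genotype alone. Among the 13928 WT H2A.Z peaks of at least its fold (6.58), 329 (2.36%) overlapped no Uhrf1hepKO peak. For the WT peaks without a counterpart at Oat, Lgr5, Tbx3, Lect2 and Axin2, that share was 12.2%, 14.9%, 25.6%, 27.4% and 29.7%. The shared upstream peak, chr11:87662314-87662430 in WT (plus strand, 41.0% GC), is shown with its 5 CpGs in capitals, because its summit was at the same base in both livers.
Rnf43 H2A.Z peak: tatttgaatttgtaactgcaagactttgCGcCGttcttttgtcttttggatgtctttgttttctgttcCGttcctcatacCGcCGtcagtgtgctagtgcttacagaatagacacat

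Znrf3, at chr11:5276324-5444847 on the minus strand, encodes the related ligase. Its TSS is the most CpG-rich of the 10, with 136 CpGs within 500 bp, more than 99.2% of genes. H2A.Z lay upstream in both livers, with the summit at -594 in WT (28 reads, 18.6 to 40.5, fold 7.07) and at -403 in Uhrf1hepKO (23 reads, 14.6 to 34.5, fold 5.58). The peaks overlap, although their summits are 191 bp apart, the largest offset among the 9 shared summits. An ATACseq peak from -288 to +36 was called in Uhrf1hepKO (fold 3.41, q = 0.0651), and it was weak, with 86.8% of that list at or above its fold. The nearest WT ATACseq peak was 97362 bp from the TSS.

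Tbx3, at chr5:119670669-119684724 on the plus strand, encodes a T-box transcription factor that is a β-catenin target in liver. It had a single peak in the 4 lists, a WT H2A.Z peak with its summit at -673 (15 reads, 8.39 to 24.7, fold 3.90). It was weak for its list, with 88.5% of the WT peaks at or above its fold. Uhrf1hepKO H2A.Z had its nearest peak 15982 bp away. ATACseq had no peak within 95225 bp of the TSS in WT or within 70600 bp in Uhrf1hepKO, although 82 CpGs lie within 500 bp of it. The antisense gene Tbx3os1 runs through the H2A.Z peak, chr5:119669968-119670119 (plus strand), which is shown as the site that the WT list alone holds, with its 7 CpGs in capitals.
Tbx3 H2A.Z peak: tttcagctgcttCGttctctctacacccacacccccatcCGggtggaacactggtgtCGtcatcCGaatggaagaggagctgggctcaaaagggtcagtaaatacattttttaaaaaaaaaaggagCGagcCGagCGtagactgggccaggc

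Glul, at chr1:153899944-153909723 on the plus strand, encodes glutamine synthetase, which pericentral hepatocytes use to fix ammonia and which serves as the standard marker of that zone. It was the only one of the 10 with no H2A.Z peak in either liver. The nearest was 18869 bp from the TSS in WT (fold 8.77) and 18862 bp in Uhrf1hepKO (fold 4.88). A WT ATACseq peak covered its TSS, from -144 to +88 (fold 5.86, q = 6.09e-08, top 13% of the list). A mean pileup of at least 14 reads per base follows from the background inferred for that list. That background came from only 3.83% of the WT ATACseq peaks, so the pileup is uncertain. In the Uhrf1hepKO ATACseq list the nearest peak was 218603 bp away. This was the strongest ATACseq peak at the 10 genes to be found in 1 liver alone. Among the 1376 WT ATACseq peaks of at least this fold, 92 (6.69%) overlapped no Uhrf1hepKO peak, a share looked up after the Glul values were seen. In whole liver, fewer open cells, less opening per cell and a site below the calling limit cannot be told apart. Nor can a difference between animals. The gene Teddm2, on the other strand, and the miRNA gene Mir8114 lie under the same peak. The upstream part of it, chr1:153899800-153899943 (plus strand), is shown because it is the open site that the WT list alone holds. Capitals mark the pentamer CCAAT.
Glul ATACseq peak, upstream part: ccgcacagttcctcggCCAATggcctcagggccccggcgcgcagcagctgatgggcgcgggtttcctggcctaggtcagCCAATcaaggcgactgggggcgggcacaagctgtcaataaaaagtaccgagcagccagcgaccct

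Oat, at chr7:132557478-132576398 on the minus strand, encodes ornithine aminotransferase, another pericentral enzyme of nitrogen metabolism. In contrast to Glul, its TSS was covered by an ATACseq peak in both livers, from -63 to +99 in WT (fold 4.42, q = 5.15e-04) and from -64 to +80 in Uhrf1hepKO (fold 3.99, q = 0.00416). H2A.Z had its summit at -232 in WT (20 reads, 12.2 to 30.9, fold 5.12), 116 bp from the ATACseq peak edge to edge. The nearest Uhrf1hepKO H2A.Z peak was 24727 bp away. An annotated transcript of Fgfr2 runs across this site on the same strand. The upstream part of the WT ATACseq peak, chr7:132576399-132576461, is shown on the minus strand for comparison with Glul, with CCAAT and its complement ATTGG in capitals.
Oat ATACseq peak, upstream part: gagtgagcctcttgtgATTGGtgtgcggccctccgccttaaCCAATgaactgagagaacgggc
Both sequences hold 2 copies. The pentamer was looked for after these sequences were seen. Within 250 bp upstream of the TSS, on either strand, 3 of the 10 genes (Glul, Oat and Apc) had at least 2 copies, beside 11.1% of all genes, and 6 had at least 1, beside 36%. Glul and Oat prompted the search and are no independent evidence, and the principal promoter of Ctnnb1 shown above, outside this window, also holds 2 copies.

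Lect2, at chr13:56542464-56548502 on the minus strand, encodes a secreted hepatocyte protein and is a β-catenin target. It had no ATACseq peak, the nearest being 25912 bp from the TSS in WT and 109875 bp in Uhrf1hepKO. H2A.Z lay just inside the gene, with the summit at +92 in WT (19 reads, 11.4 to 29.7, fold 4.87) and at +104 in Uhrf1hepKO (20 reads, 12.2 to 30.9, fold 4.88). A further WT summit at +1062 (14 reads, 7.65 to 23.5, fold 3.66) had no Uhrf1hepKO counterpart. Lect2 is the CpG-poorest of the 10, with 13 CpGs within 500 bp of the TSS. Its promoter is shown because it carries a match to the TCF motif CTTTGAT, here on the other strand as ATCAAAG, in capitals, in chr13:56548503-56548752 (minus strand).
Lect2 promoter: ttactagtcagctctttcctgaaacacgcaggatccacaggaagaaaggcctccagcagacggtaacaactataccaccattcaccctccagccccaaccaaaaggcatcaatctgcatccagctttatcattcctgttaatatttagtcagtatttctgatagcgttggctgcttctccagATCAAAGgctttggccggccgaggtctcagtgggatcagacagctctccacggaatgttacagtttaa

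The motif CTTTGAT, searched on both strands within 500 bp of the TSS, was found at 2 of the 10 genes, Axin2 and Lect2, beside 11.2% of all genes. In the 300 bp around a peak it was found at Axin2 alone, in 1 WT ATACseq, 1 Uhrf1hepKO ATACseq and 1 WT H2A.Z peak and in none of the Uhrf1hepKO H2A.Z peaks. Over the whole lists, 3.21%, 3.42%, 4.96% and 4.88% of the peaks held it.

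**Figure D2:**
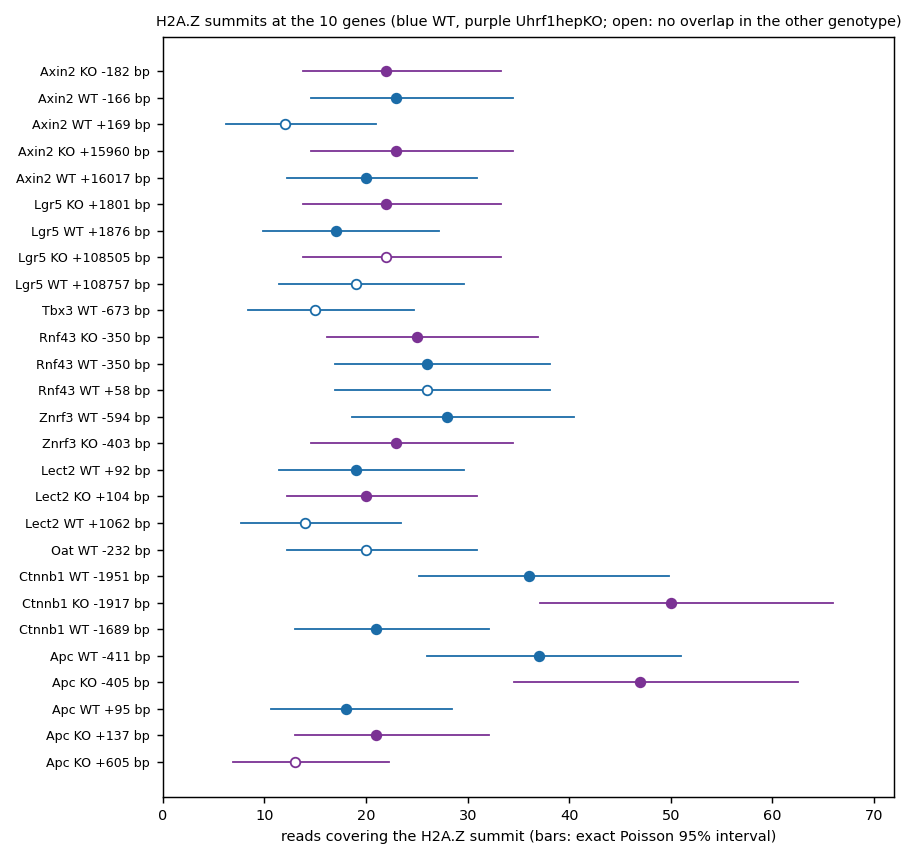
Reads over each H2A.Z summit at the 10 genes (horizontal axis, number of reads, with exact Poisson 95% intervals as bars), 1 row per summit labelled by gene, liver and distance from the TSS. Blue is WT, purple is Uhrf1hepKO, and open circles mark peaks that no peak of the other liver overlaps. The 2 upstream summits of Ctnnb1 and Apc in Uhrf1hepKO, at 50 and 47 reads, are the highest.

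H2A.Z was found at the same place in both livers more often than not. Of the 16 WT peaks 10 overlapped a Uhrf1hepKO peak (62.5%, 38.6 to 81.5%), beside 70.0% of the whole list. Of the 11 Uhrf1hepKO peaks 9 overlapped a WT peak (81.8%, 52.3 to 94.9%), beside 75.6%. The 9 pairs of shared summits lay a median of 34 bp apart. Their Uhrf1hepKO over WT read ratio, divided by the ratio of the backgrounds (3.10 reads per base in WT, 3.30 in Uhrf1hepKO), ran from 0.772 at Znrf3 (exact 95% interval 0.424 to 1.39) to 1.30 at Ctnnb1 (0.833 to 2.06). All 9 intervals hold 1. These pairs had to be called in both livers, which keeps ratios far from 1 out, and peaks of 1 liver alone were not compared. The 2 summits of a pair are also not at the same base in most cases, with 191 bp between them at Znrf3. The ratios therefore cannot show whether H2A.Z differed between the livers. The 6 WT peaks without a Uhrf1hepKO counterpart, at Axin2, Lgr5, Tbx3, Rnf43, Lect2 and Oat, had 12 to 26 reads (median 17). The 10 shared WT peaks had 17 to 37 (median 22), so the groups overlap. The fewest reads under any summit on the common background were 11 in WT and 12 in Uhrf1hepKO, so a site without a peak may still hold H2A.Z reads below that.

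**Figure D3:**
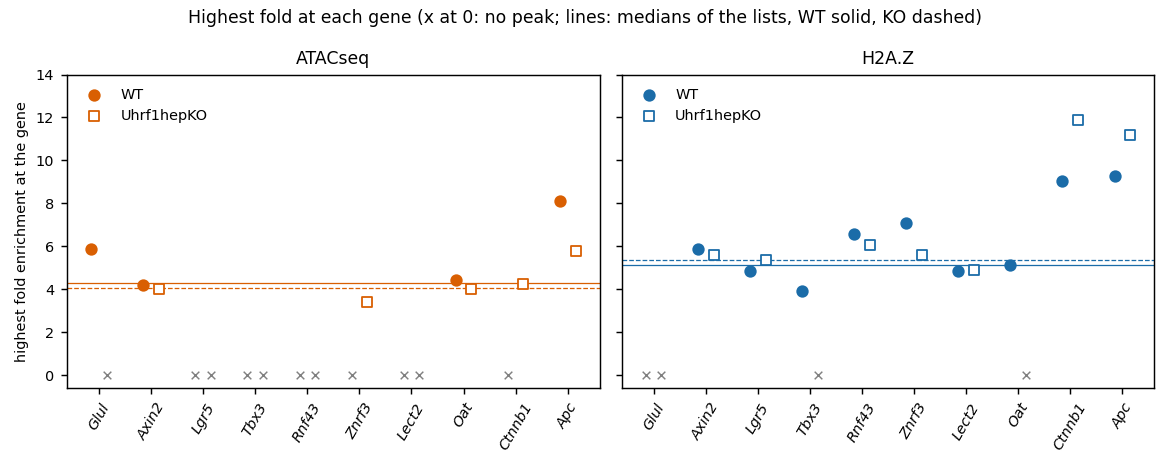
Highest fold enrichment at each of the 10 genes (vertical axis) in the WT list (filled circles) and the Uhrf1hepKO list (open squares), with ATACseq on the left and H2A.Z on the right. Crosses at 0 mark a gene with no peak, and lines mark the median fold of each list. Ctnnb1 and Apc stand above the others for H2A.Z in both livers, at 9.02 and 9.26 in WT and 11.9 and 11.2 in Uhrf1hepKO.

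Within the WT H2A.Z list the order by highest fold was Apc, Ctnnb1, Znrf3, Rnf43, Axin2, Oat, Lgr5 level with Lect2, and Tbx3, from 9.26 to 3.90. Neighbours in that order had overlapping read intervals. In Uhrf1hepKO it was Ctnnb1, Apc, Rnf43, Axin2 level with Znrf3, Lgr5 and Lect2, from 11.9 to 4.88. There the 50 reads at Ctnnb1 (37.1 to 65.9) did not overlap the 25 at Rnf43 (16.2 to 36.9), whereas the 47 at Apc (34.5 to 62.5) did.

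ATACseq peaks at the TSS were shared at Axin2, Oat and Apc. Of the 4 WT peaks 3 overlapped a Uhrf1hepKO peak (75%, 30.1 to 95.4%), beside 61.3% of the list, and Glul held the other. With only peaks from the median fold upwards in each list the share was 33.3%, from 3 peaks, and it was 50% where the overlap had to cover 50% of both peaks. Of the 5 Uhrf1hepKO peaks 3 overlapped a WT peak (60%, 23.1 to 88.2%), beside 60.3%, with Znrf3 and Ctnnb1 holding the rest. The assays met at few sites. In WT, 2 of 4 ATACseq peaks (Axin2 and Apc) overlapped H2A.Z, beside 35.3% of the list, and 2 of 16 H2A.Z peaks overlapped ATACseq, beside 8.64%. In Uhrf1hepKO it was 1 of 5 ATACseq peaks (Apc), beside 27.2%, and 1 of 11 H2A.Z peaks, beside 7.25%. Only Axin2 and Apc had both assays in both livers.

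**Figure D4:**
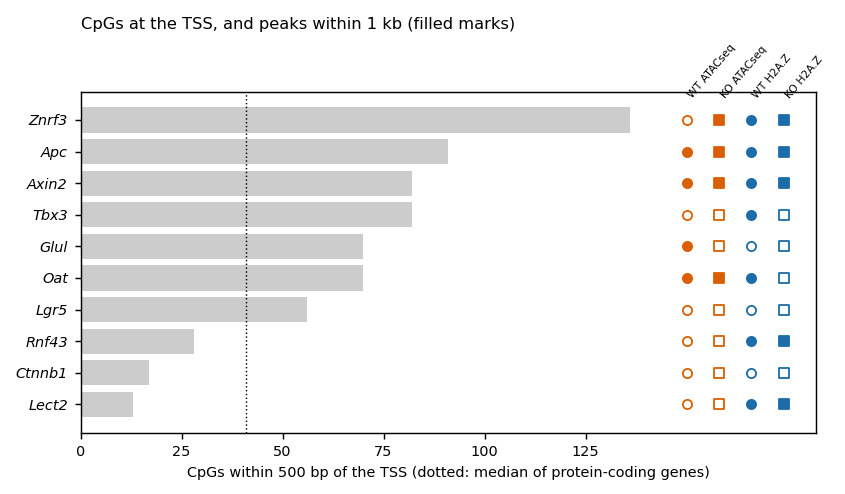
CpG count in the window of 500 bp on either side of the TSS (bars, horizontal axis) for the 10 genes in rising order from below, with the median of all protein-coding genes (41) dotted. The marks on the right are filled where a peak lies within 1 kb of the TSS, orange for ATACseq and blue for H2A.Z, circles for WT and squares for Uhrf1hepKO. Filled orange marks stop at genes with 70 CpGs or more, and filled blue marks reach the lowest bar.

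The TSSs of the 10 genes held a median of 70 CpGs within 500 bp, beside 41 over all genes. Split at the CpG count of Glul, a value chosen after the peaks were seen, 5 of the 6 genes with at least 70 CpGs had an ATACseq peak within 1 kb in either liver (Znrf3, Apc, Axin2, Glul and Oat, but not Tbx3), beside 53.6% of all genes of that class. Of the 4 genes with fewer CpGs (Lgr5, Rnf43, Ctnnb1 and Lect2) 0 had one. The cut is the lowest CpG count of a member with such a peak. It therefore fixed the 0 and put all 5 genes with a peak in the upper class. Neither count is a result beside the 53.6%, or beside the 22.6% of all genes of the lower class. Ctnnb1 is in the lower class only by its outer 5′ end, since its principal start lies in the CpG-rich sequence shown above, under a Uhrf1hepKO ATACseq peak. Rnf43 was also classed by its outer 5′ end, and CpGs at its principal starts were not counted. H2A.Z lay within 1 kb in either liver at 5 of the 6 genes, with Glul the exception, beside 75.9%, and at 2 of the 4 (Rnf43 and Lect2), beside 38.7%.

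The rest of the pathway was counted by list, with peaks in the WT ATACseq, Uhrf1hepKO ATACseq, WT H2A.Z and Uhrf1hepKO H2A.Z lists in that order. Over all genes these shares were 39.2%, 37.7%, 64.3% and 62.4%, and the lists were not tested against them. Of 9 Wnt ligands and R-spondins, 1, 1, 6 and 4 had a peak. Wnt5a was the only one with H2A.Z within 1 kb of the TSS, in both livers (fold 6.58 and 7.90), no gene of the list had ATACseq there, and Rspo2, Rspo3 and Wnt4 had no peak of either assay. Of 11 receptors and co-receptors, 4, 3, 7 and 9 had a peak. The highest fold within 1 kb was at a Frizzled receptor gene, Fzd7 (5.51), Fzd5 (3.68, the only one in its list), Fzd8 (10.2) and Fzd1 (12.1), and Fzd2 and Fzd3 had no peak.

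The destruction complex and nuclear partners of β-catenin had a peak at 6, 8, 16 and 16 of 18 genes. Btrc, a ubiquitin ligase subunit that recognises β-catenin, led for ATACseq in WT (5.57) and Uhrf1hepKO (6.10), and H2A.Z was led by the coactivator gene Bcl9 in WT (12.7) and the kinase gene Gsk3a in Uhrf1hepKO (13.2). Lef1 and Pygo1 had no peak. Of 10 secreted or feedback inhibitors, 1, 3, 5 and 2 had a peak. Each list held 1 of them within 1 kb, Wif1 for WT ATACseq (3.89) and for H2A.Z in both livers (11 and 9.53) and Sfrp1 for Uhrf1hepKO ATACseq (3.42), and Nkd1, Nkd2, Notum and Sfrp5 had none.

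Zonated genes outside the 10 were counted in the same way. Of 11 pericentral hepatocyte genes, 3, 4, 4 and 5 had a peak. Within 1 kb, Aldh3a2 had the only ATACseq peak in WT (5.61) and the highest fold of 3 genes in Uhrf1hepKO (4.69), and Ahr had the highest of 3 for H2A.Z in each liver (9.51 and 8.60). Gulo, Rgn and Sp5 were among those with none. Of 12 periportal genes, 3, 4, 6 and 6 had a peak, led by Hsd17b13 for ATACseq (5.06 and 4.30) and by Hal for H2A.Z (5.12 and 5.35). The urea cycle genes Arg1, Ass1 and Cps1 had no peak in any list, nor had G6pc and Sds.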

How the data were processed

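Per the labels and the methods, the authors used BWA-MEM against GRCm38.p4, then Picard for cleaning and sorting (and, for ChIPseq, for removing duplicates). The methods give a p-value cutoff of 0.05 for the MACS2 calls, with broad mode for ATACseq. In the lists used, the highest q-value was 0.0997 (WT) and 0.0993 (Uhrf1hepKO) for ATACseq. For H2A.Z it was 0.05 (WT) and 0.0489 (Uhrf1hepKO). The limit that set these lists is therefore not settled by the stated p-value. ATACseq reads are described as single-end and called with the paired-end option. The mode of the H2A.Z calls, the MACS2 version and a control library are not given in the sources used here. Each deposited peak has a display score, a fold (a ratio of pileup plus 1 to local background plus 1) and −log10 p- and q-values.

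Only chromosomes 1 to 19, X and Y entered. Peaks were joined by a 1 bp overlap to GENCODE vM21 genes, with the TSS at the 5′ end of the gene. H2A.Z summit reads are the whole number that solves both the deposited fold and the deposited −log10 p-value. Sequences were read from GRCm38 outside UTRs, and none is printed for Apc, Lgr5 or Znrf3. Some items are not reported here. In each pathway list the genes named are those with no peak and the one with the highest fold within 1 kb of the TSS. Tf, listed as a hepatocyte marker, matched no protein-coding symbol. The 10 genes and the lists were chosen with earlier results of these data known. Scripts used Python 3.11.15, pandas 2.3.3 and SciPy 1.17.1 and were tested on simulated data.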

Additional observations from a re-analysis of the deposited data

How the results depend on the processing

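Of 72 values recomputed under other settings, 68 stayed within 1.5 times the count or within the interval of the share. The 4 that moved all came from keeping only the stronger part of each list, from its median fold upwards, which leaves fewer peaks. In the Uhrf1hepKO ATACseq list, members with a peak went from 5 to 2, peaks at the members from 5 to 2, and those with one inside 1 kb from 4 to 1. In the WT H2A.Z list, peaks at the members went from 16 to 9. The share of WT ATACseq peaks shared with Uhrf1hepKO was 75%, and 33.3% from the median fold upwards or 50% with an overlap of 50% of both peaks, within its wide interval. With the TSS of any annotated transcript, the Uhrf1hepKO ATACseq peak of Ctnnb1 counts as within 1 kb, which gives 5 genes in place of 4. That setting also gives Uhrf1hepKO H2A.Z peaks at 8 genes in place of 7, with 15 peaks in place of 11. The WT H2A.Z peaks become 19 in place of 16. With 1 library per group, no replicate could be left out, and no statement about a genotype goes beyond the pair of livers. Total read depth is not known from the peak lists, and shallow sites fall below the calling limit.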
